A study of Mus musculus with 4 samples.

Results

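The genes of the REV-ERB and ROR nuclear receptors analysed here are Nr1d1, Nr1d2 and Rora, and the data are the CTCF binding sites listed around them in mouse liver. A site belonged to a gene when it lay in the gene body (GENCODE annotation of mm9) extended by 200 kb on both sides. The 3 genes were chosen by name among 22350 protein-coding genes. The rule gave them 24 of 10113 sites listed at ZT0 and 15 of 6799 listed at ZT12. The livers came from wild-type male C57BL/6 mice labelled as 8 weeks old, which is their age before 2 weeks in 12 h of light and 12 h of darkness with free access to food. ZT0 is the time of lights on and ZT12 that of lights off, and CTCF ChIP-seq was made from 2 biological replicates at each. No group had a treatment or a mutation. ChIP-seq recovers the DNA bound by a protein with an antibody and sequences it, and a site is a stretch where the reads pile up. Each time point has a single list for both replicates, with the position of every site and no height, so the spread between replicates and the depth behind a site are unknown. The lists had been through a motif search, so the absence of a site here means only that the list does not hold it.

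REV-ERBα (Nr1d1) and REV-ERBβ (Nr1d2) are heme-binding repressors, and RORα (Rora) is an activator that binds the same response elements. Through these elements they set the rhythm of Arntl and of other clock genes, and in liver they act on lipid metabolism. CTCF is a zinc finger protein that, with cohesin, marks the ends of many chromatin loops, and the direction of its motif matters for which sites pair.

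The 3 genes differed widely in the number of sites. Around Nr1d1, 18 sites were listed at ZT0 and 13 at ZT12, in a window of 407.4 kb. Around Nr1d2, the ZT0 list held 1 site and the ZT12 list 0, in 435.1 kb. Around Rora, which is itself 734 kb long, 5 sites were listed at ZT0 and 2 at ZT12, in 1134 kb. Most of the sites thus belonged to Nr1d1, and the totals over the 3 genes are mainly a description of its surroundings.

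**Figure D1:**
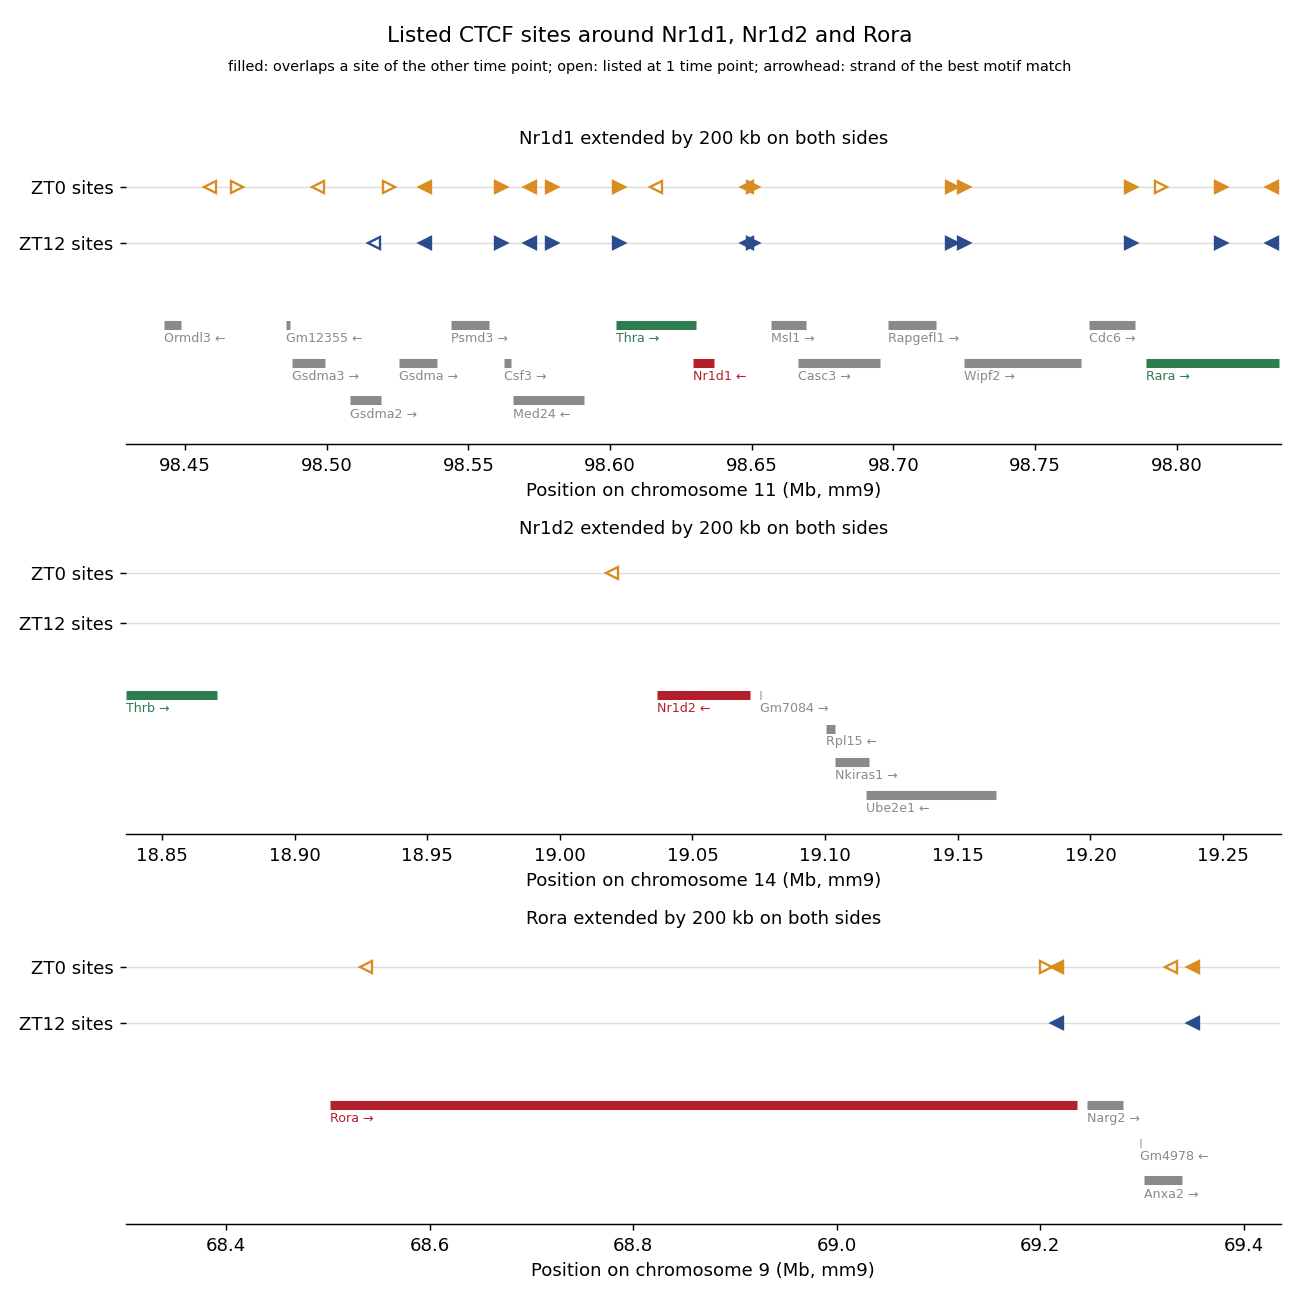
Position of each listed CTCF site (arrowheads, x axis in Mb of mm9) around Nr1d1, Nr1d2 and Rora, with ZT0 sites above ZT12 sites and protein-coding genes as bars below; filled arrowheads overlap a site of the opposite list, open ones do not, and they point along the strand of the best motif match. The 18 ZT0 and 13 ZT12 sites of the Nr1d1 window lie on both sides of the gene, while the Nr1d2 window holds 1 open ZT0 site.

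A site was called shared when 1 bp or more of it lay in a site listed at the opposite time. Of the 24 ZT0 sites, 14 were shared (58.3%, 95% Clopper-Pearson interval 36.6 to 77.9%), against 56.2% of the whole ZT0 list. Of the 15 ZT12 sites, 14 were shared (93.3%, 68.1 to 99.8%), against 83.6% of the whole ZT12 list. Both intervals, which cover counting error only, held the share of the whole list. The shared fraction around the 3 genes thus did not stand apart from that of all sites in these lists. By gene, 12 of 18 ZT0 sites and 12 of 13 ZT12 sites were shared around Nr1d1. Around Rora these numbers were 2 of 5 and 2 of 2. Around Nr1d2, 0 of 1 ZT0 sites was shared, and the ZT12 list held 0 sites. The lists differ in length, and how far this sets the 10 sites found at ZT0 only and the 1 site found at ZT12 only was not tested.

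Each of the 14 shared sites paired with a single site of the other list. In 12 of these 14 pairs the ZT12 site was the narrower, against 71.2% of the 5665 such pairs in the whole lists. The difference in width from ZT0 to ZT12 ranged from -141 bp to 44 bp with a median of -29.5 bp, and the median over all pairs was -47 bp. The best motif match was the same in all 14 pairs, and the midpoints lay between 3 and 145 bp apart. The ZT0 sites were 216 to 501 bp wide with a median of 287.5 bp, and the ZT12 sites 203 to 469 bp with a median of 286 bp. Shared ZT0 sites had a median width of 334 bp and ZT0-only sites one of 265 bp. In the whole ZT0 list these medians were 346 bp and 277 bp, so the members followed the pattern of the list.

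A match to the CTCF motif, a matrix of 19 bp learned from the sites of other chromosomes, was found in all 24 ZT0 sites and all 15 ZT12 sites. The same held for 99.1% of the full ZT0 list and 98.9% of the full ZT12 list, while 14.1% and 13.7% of equally long regions 5 kb away had a match. Both lists had already been through a motif search (FIMO), and how it filtered them is not given in the sources used here, so the presence of a match describes the lists and nothing is read from it. At a stricter score that about 1% of such regions pass, 14 of 24 ZT0 sites (58.3%, 36.6 to 77.9%) and 10 of 15 ZT12 sites (66.7%, 38.4 to 88.2%) matched. The values of the whole lists, 64.0% and 66.3%, lay within these intervals.

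Nr1d1 lies on the minus strand at chr11:98629246-98636647 (ENSMUSG00000020889), and its 3′ end overlaps that of Thra, the gene of thyroid hormone receptor α on the opposite strand, by 1075 bp. No site of either list lay in the gene body. The sites nearest to its transcription start lay upstream of it, between Nr1d1 and Msl1, in intergenic sequence, and both were shared. The nearer was listed at chr11:98648208-98648647 at ZT0 (440 bp) and chr11:98648123-98648441 at ZT12 (319 bp), with its midpoint 11.8 kb and 11.6 kb from the start. The next was listed at chr11:98650226-98650494 at ZT0 (269 bp) and chr11:98650187-98650422 at ZT12 (236 bp), 13.7 kb from the start. Their matches were among the weaker ones, with scores of 8.89 on the minus strand and 12.89 on the plus strand, while the median of the whole ZT0 list was 18.27. Between them, at chr11:98649272-98649290, lay a match past the stricter score that no listed site covers. These sequences stand closest to the Nr1d1 start, and the ZT12 interval of the farther site is given whole, on the plus strand of mm9, with the match in capitals. The match of the nearer site, from 98648354 to 98648372, is given with 20 bp on each side and reads along the minus strand.
chr11:98648334-98648392, minus strand: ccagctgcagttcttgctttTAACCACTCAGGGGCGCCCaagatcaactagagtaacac
chr11:98650187-98650422, plus strand: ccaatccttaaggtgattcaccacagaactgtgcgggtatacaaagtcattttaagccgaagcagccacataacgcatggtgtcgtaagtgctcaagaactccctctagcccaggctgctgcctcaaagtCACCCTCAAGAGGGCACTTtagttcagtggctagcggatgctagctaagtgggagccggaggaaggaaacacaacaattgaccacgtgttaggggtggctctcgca

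On the other side, downstream of Nr1d1, 2 ZT0 sites lay in Thra. The ZT0-only site at chr11:98616060-98616324 (265 bp) lay in intron 2 of Thra, 20.5 kb from the Nr1d1 start. The shared site at chr11:98602860-98603247 (388 bp at ZT0, 283 bp at ZT12) lay within 1 kb of an annotated start of Thra, in sequence with a GC content of 83%, the highest around the 3 genes. Thus the stretch without a site around the Nr1d1 start was 31.9 kb at ZT0 and 45 kb at ZT12, where the median gap between neighbouring sites was 71.7 kb and 107 kb. Both stretches were shorter than that median and longer than the median gap within the Nr1d1 window, 17.6 kb at ZT0 and 20.5 kb at ZT12.

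Further downstream of Nr1d1 lay Med24, a Mediator subunit gene, and Csf3, which encodes granulocyte colony-stimulating factor. Med24 held 2 shared sites, listed at ZT0 at chr11:98579151-98579559 in exon 6 of 26 and at chr11:98571748-98572028 in intron 16. Both also lay within 1 kb of an annotated transcript start. A shared site listed at ZT0 at chr11:98561250-98561517 lay 1.19 kb upstream of the Csf3 start, and its match TGGCCACCAGAGGGCACCC on the plus strand, from 98561377 to 98561395, scored 24.79, the highest score around the 3 genes. Upstream of Nr1d1, no site lay between 98650494 and 98720415 at ZT0, a stretch of 69.9 kb that holds Msl1, Casc3 and Rapgefl1. Beyond it, shared sites were listed at ZT0 at chr11:98720415-98720750, between genes, and at chr11:98724746-98724972, across the start of Wipf2. A shared site at chr11:98783671-98783985 lay in the last of 12 exons of Cdc6, a gene of replication licensing, in its untranslated part. Rara, the retinoic acid receptor α gene, held the ZT0-only site chr11:98794450-98794679 in intron 1, the shared ZT0 site chr11:98815452-98815952 in intron 2, which was the widest around the 3 genes at 501 bp, and the shared ZT0 site chr11:98833543-98833874 in intron 7. Rara thus carried intronic sites at both times, Thra carried one at ZT0 only, and Nr1d1 carried none.

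Past Csf3 in the downstream direction lie the gasdermin genes Gsdma3, Gsdma2 and Gsdma, which encode pore-forming proteins and resemble each other in sequence. The only ZT12-only site around the 3 genes was chr11:98516468-98516676 (209 bp) in intron 8 of Gsdma2. A ZT0-only site at chr11:98496796-98497089 lay in intron 7 of Gsdma3, and a shared site at chr11:98534365-98534856 in intron 9 of Gsdma. All 3 sites held the same match of 19 bp on the minus strand, with a score of 22.60. Over 219 bp around the match, the Gsdma3 and Gsdma sites were identical at 206 positions (94.1%), 156 of them in a row. The Gsdma2 site was identical to the Gsdma3 site at 174 positions and to the Gsdma site at 166, with 59 in a row in both cases. The matches are printed with 20 bp on each side along the minus strand, to show how alike sites with a different listing are.
Gsdma3, ZT0 only, chr11:98496903-98496961: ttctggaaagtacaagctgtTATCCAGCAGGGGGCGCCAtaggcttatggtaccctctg
Gsdma2, ZT12 only, chr11:98516576-98516634: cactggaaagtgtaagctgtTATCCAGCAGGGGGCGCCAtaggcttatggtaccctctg
Gsdma, both times, chr11:98534684-98534742: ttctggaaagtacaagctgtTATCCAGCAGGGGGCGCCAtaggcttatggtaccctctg

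A further pair of similar sites in the Nr1d1 window was ZT0-only and lay between genes, at chr11:98468034-98468378 and chr11:98521940-98522210. Both held TGACCACCAGGGGGAGATA on the plus strand, and they were identical at 157 of 219 positions, 68 in a row. The remaining ZT0-only site, chr11:98458669-98458933, lay between genes 10.1 kb upstream of Ormdl3, within 1 kb of the start of a noncoding transcript. This comparison and its limit of 70% identity were added after the sites were seen, and it was not made over the whole lists, so no link between likeness and listing is read from it. None of the other pairs among the 25 distinct sites of the 3 windows was identical at more than 35.6% of positions. Reads that map equally well to similar copies are lost to a filter on mapping quality, and its part in the listing of these sites was not tested.

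Nr1d2 lies on the minus strand at chr14:19036568-19071641 (ENSMUSG00000021775). Its window holds Rpl15, Nkiras1 and Ube2e1 upstream, and the end of Thrb, the thyroid hormone receptor β gene, downstream. The only site was listed at ZT0 at chr14:19019622-19019837, between genes, 51.9 kb downstream of the Nr1d2 start and past the 3′ end of the gene. At 216 bp it was the narrowest ZT0 site around the 3 genes, it had the lowest GC content (42%), and its match scored 11.48, under the stricter score. No site of either list lay in the window part of Thrb. At ZT12, 0 sites lay in the window, as was the case for 27.6% of all protein-coding genes. The ZT12 sites that flank the Nr1d2 start were chr14:17212712-17213040 and chr14:19874577-19874895, with 2662 kb between them, and 2.49% of the gaps between neighbouring ZT12 sites were longer. At ZT0 the stretch without a site around the start was 855 kb, and 5.84% of gaps were longer. The sequence of the site is shown because it is the sole CTCF site listed around this gene (plus strand of mm9, with the match, which lies on the minus strand, in capitals).
chr14:19019622-19019837: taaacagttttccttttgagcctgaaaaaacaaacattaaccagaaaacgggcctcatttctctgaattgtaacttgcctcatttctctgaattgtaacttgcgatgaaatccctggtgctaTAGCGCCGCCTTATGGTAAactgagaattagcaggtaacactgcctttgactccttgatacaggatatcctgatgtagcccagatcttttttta

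Rora lies on the plus strand at chr9:68501593-69236053 (ENSMUSG00000032238) and is the only one of the 3 genes with sites in its body, 3 at ZT0 and 1 at ZT12. The ZT0-only site chr9:68537266-68537488 (223 bp) lay in intron 1, 35.8 kb downstream of the first annotated start, with a match that scored 9.63. The others lay near the 3′ end: the ZT0-only site chr9:69205764-69206001 (238 bp) in intron 3, which also overlaps the noncoding gene Gm15511, and a shared site in intron 5. That site was listed at chr9:69215976-69216224 at ZT0 (249 bp) and at chr9:69215927-69216219 at ZT12 (293 bp), with an overlap of 244 bp, and was 1 of the 2 pairs that were wider at ZT12. Rora has several annotated starts. The ZT0 site in intron 3 lay 10.8 kb from the most downstream coding start, at 69195053, and the shared site in intron 5 lay 21 kb from it. From the first start, the nearest ZT12 site lay 638 kb upstream, at chr9:67862940-67863306 and outside the window. The stretch between that site and the one in intron 5 measured 1353 kb, and 5.94% of the gaps between ZT12 sites were longer.

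Downstream of Rora, no site lay in Narg2. In Anxa2, the annexin A2 gene, a ZT0-only site was listed at chr9:69328204-69328635, within 1 kb of an annotated transcript start. At 432 bp it was wider than any other site that was not shared around the 3 genes. Past Anxa2, a shared site was listed at chr9:69350286-69350664 at ZT0 and chr9:69350329-69350660 at ZT12, between genes. The shared site inside Rora is printed whole as listed at ZT0, on the plus strand of mm9, since it is the only site within any of the 3 gene bodies that both lists hold; capitals mark the match on the minus strand, with a score of 18.32.
chr9:69215976-69216224: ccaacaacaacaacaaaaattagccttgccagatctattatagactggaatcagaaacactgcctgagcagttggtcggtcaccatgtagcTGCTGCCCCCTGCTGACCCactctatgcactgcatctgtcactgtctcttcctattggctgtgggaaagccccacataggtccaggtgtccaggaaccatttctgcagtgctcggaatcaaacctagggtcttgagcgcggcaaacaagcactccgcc

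By the position of their midpoints, the 24 ZT0 sites comprised 6 no more than 1 kb from the start of any annotated transcript, 1 in another exon, 9 intronic and 8 intergenic ones. The 15 ZT12 sites comprised 4, 1, 5 and 5 of these kinds. Over the whole lists, the shares of the 4 kinds in the same order were 20.4, 5.49, 30.8 and 43.3% at ZT0 and 20.4, 5.03, 30.3 and 44.3% at ZT12. None of the 3 genes had a site within 10 kb of its own first start. In the Nr1d1 window, the last ZT0 site, in Rara, ended 2.77 kb inside the window. The nearest ZT0 sites outside were chr11:98843371-98843596, 6.72 kb past that end, and chr11:98416547-98416802, 12.4 kb past the other. At ZT12 the nearest outside sites lay 64.4 kb and 110 kb past these ends. For Nr1d2, the nearest ZT0 sites outside lay 36.4 kb (chr14:18799923-18800193) and 603 kb away, and the ZT12 ones 1624 kb and 603 kb. For Rora, they lay 438 kb and 35.1 kb (chr9:69471193-69471458) away at ZT0, and 438 kb and 1601 kb at ZT12.

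Set beside all 22350 protein-coding genes with the same extension, Nr1d1 lay at the upper end. Its window held 44.2 ZT0 sites and 31.9 ZT12 sites per Mb, and 0.26% and 0.362% of genes had more. The medians over all genes were 6.8 and 4.56 per Mb. The window of Nr1d2 held 2.3 ZT0 sites per Mb, with more around 74.1% of genes. The Rora window held 4.41 and 1.76 per Mb, with more around 62.2% and 71.1% of genes. The Nr1d1 window also held the most transcription starts of protein-coding genes, 16 against 5 around Nr1d2 and 4 around Rora, and its GC content was 49.6% against 42.5% and 44.1%. The part of gene density and base composition in these counts was not tested.

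**Figure D2:**
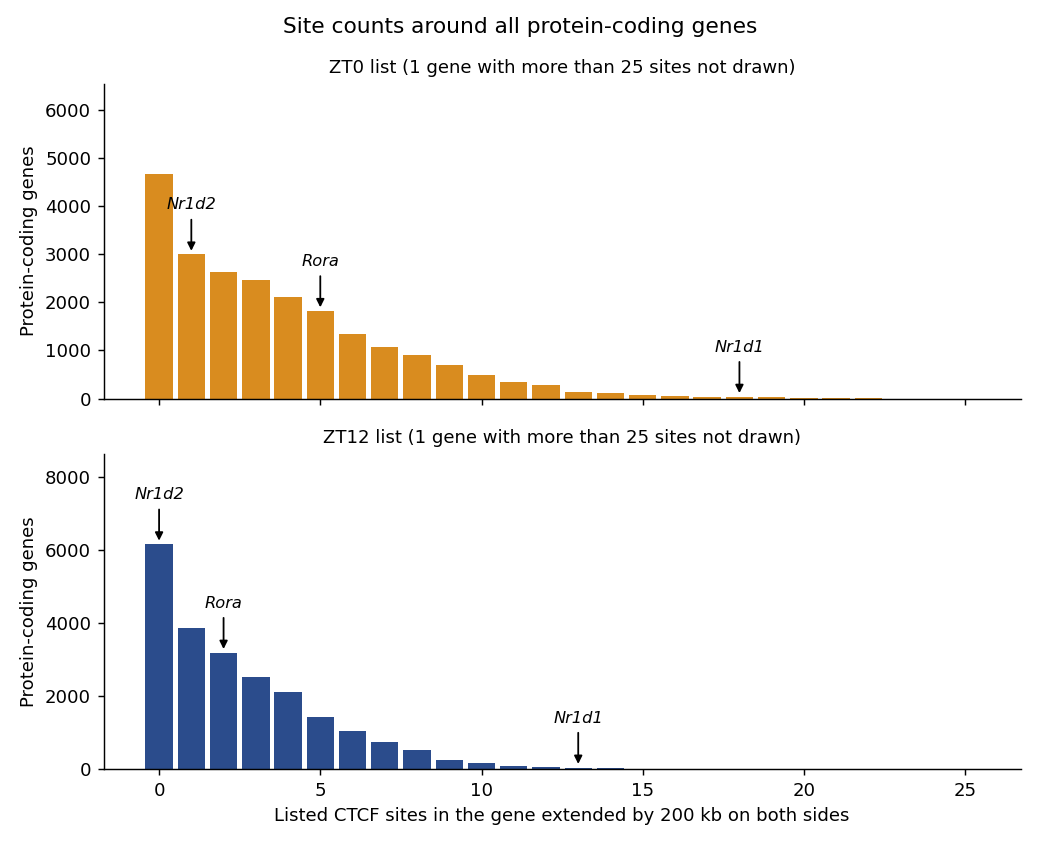
Number of protein-coding genes (y axis) by the number of listed CTCF sites in the gene extended by 200 kb on both sides (x axis), for the ZT0 list above and the ZT12 list below; arrows mark Nr1d1, Nr1d2 and Rora. Nr1d1 stands in the upper tail with 18 and 13 sites, Rora has 5 and 2, and Nr1d2 has 1 and 0.

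The number of strong motif matches in the sequence was also counted, whether listed or not. At the stricter score, the Nr1d1 window held 27 matches (66.3 per Mb), of which 13 lay in ZT0 sites and 10 in ZT12 sites. The Rora window held 16 (14.1 per Mb), of which 3 and 2 lay in listed sites. The Nr1d2 window held 10 (23 per Mb), and 0 of them lay in a site of either list. Over all chromosomes there were 11.3 matches per Mb, and 23.3% lay in ZT0 sites and 16.4% in ZT12 sites. The 95% intervals of the shares in ZT0 and ZT12 sites were 0 to 30.85% in both lists for Nr1d2, 4.05 to 45.65% and 1.55 to 38.35% for Rora, and 28.67 to 68.05% and 19.4 to 57.63% for Nr1d1. Those of Nr1d2 and Rora held the shares over all chromosomes, and those of Nr1d1 did not. These intervals take each match as independent, but matches can share a site. Around Nr1d1, the 13 and 10 matches lay in 11 ZT0 sites and 8 ZT12 sites. Shares with each site counted once were not tested, so no departure of Nr1d1 from all chromosomes is read from the intervals. The density of matches was not set against that of other gene windows. The strong match nearest to the Nr1d2 start, at chr14:19093001-19093019, lay 21.4 kb upstream of it.

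Other clock genes were counted with the same extension, for comparison only. Per1, which encodes a clock repressor and also lies on chromosome 11, had 7 ZT0 and 9 ZT12 sites. Among the 3 genes and the clock genes compared, its density was the next highest after Nr1d1 in both lists. Of all protein-coding genes, 16.3% had a higher density than Per1 at ZT0 and 2.68% at ZT12. Npas2 had 5 and 3, Cry2 had 4 and 3, Arntl 1 and 1, and Clock 1 and 0. Nr1d2 thus had the same counts as Clock. The site nearest to the start lay 0.789 kb away at ZT0 and 199 kb away at ZT12 for Npas2, 27.6 kb and 2.67 kb for Per1, 51.8 kb at both times for Cry2, 63.8 kb and 61.1 kb for Arntl, and 164 kb and 284 kb for Clock. Only for Cry2 did the nearest sites of the 2 lists overlap. For Npas2, Per1, Arntl and Clock they lay on opposite sides of the start, and for Arntl neither was shared. No test was made of these differences, since the sites of a single list are not replicates.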

How the data were processed

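CTCF ChIP-seq of mouse liver comprised 4 samples, with 2 biological replicates per time point (ZT0 and ZT12). The authors mapped reads to NCBIM37/mm9 with Bowtie2, kept well-mapped reads with samtools, removed duplicates with Picard and ran MACS2 with default settings. They deposited 1 list of positions per time point, labelled as holding both replicates after FIMO; how replicates were combined is not given in the sources used here. The lists give chromosome, start and end only, with no score, strand, replicate or depth.

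Positions are 1-based in mm9. Sites overlapping a gene of the GENCODE annotation extended by 200 kb were taken, and overlap of at least 1 bp was counted as shared. Shares have 95% Clopper-Pearson intervals (SciPy). No test between times of day was made. A 19 bp log-odds matrix was started from the 12 bp word most enriched in the sites over sequence 5 kb away and refined in 3 rounds. Even-numbered chromosomes and X were scored by a matrix from the odd-numbered ones and vice versa, with a threshold at a p of 0.0001 per position. The stricter score is passed by about 1% of regions 5 kb away. Similar sites were compared without gaps over the match and 100 bp on each side, and pairs with at least 70% identity were called similar, a comparison added after the sites were seen. GC content was taken over 200 bp around the midpoint, and distances run from the midpoint to the annotated start. Introns and exons are numbered in the longest coding transcript.

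Every distinct site in the windows of the 3 genes is named, a shared one by its ZT0 interval and only in part of the cases also by that of ZT12, with Arntl, Clock, Npas2, Per1 and Cry2 for comparison. The members and lists were chosen with earlier results of these data known. Alternatives changed the extension, the gene coordinates, the rule for belonging to a window, the overlap counted as shared and the motif threshold. The functions were tested on simulated sites and planted motifs. Python 3.11.15, NumPy 2.4.6, SciPy 1.17.1, pysam 0.24.0 and matplotlib 3.10.9 were used.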

Additional observations from a re-analysis of the deposited data

How the results depend on the processing

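Of 24 values under alternative settings that could differ, 13 stayed within 1.5 times the reported count. The counts moved with the extension of the genes, as follows from taking shorter or longer windows. With 50 kb, there were 9 ZT0 sites, of which 5 were shared, and 5 ZT12 sites, of which 5 were shared. With 100 kb, there were 15 ZT0 sites. With 500 kb, there were 39 ZT0 sites, 23 of them shared, and 24 ZT12 sites, 23 of them shared. At each of these extensions Nr1d1 had more sites than Nr1d2 or Rora in both lists, and Nr1d2 had 0 ZT12 sites. Of the 39 sites of both lists together, 61.5% had a motif match at the stricter score, against 100% at the reported one, and 0% held the exact 12 bp core, which 3.89% of the whole ZT0 list and 4.40% of the whole ZT12 list held. Other gene coordinates for Nr1d1 and Nr1d2 were equal to those used, so that setting could not differ and is not counted. Taking sites by their midpoint, requiring 50% overlap of both sites, or allowing 500 bp or 5 kb between them left the counts as reported.

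No paired analysis was possible because each time point has 1 list for both replicates, and for the same reason the replicate block and the leaving out of replicates were not run. Without the depth, a site that was missed at 1 time point and a change in binding cannot be told apart.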
